A study of Mus musculus with 6 samples.

Results

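The clustered Hox genes were followed in adult mouse dorsal root ganglia, the clusters of sensory neuron cell bodies and glia that lie beside the spinal cord at each level of the trunk. The members are the 39 genes whose symbols name 1 of the 4 clusters and a paralog number, out of 55809 gene symbols in the count tables. Cluster A holds 11 of them on chromosome 6, cluster B 10 on chromosome 11, cluster C 9 on chromosome 15 and cluster D 9 on chromosome 2. They were chosen by name and not by any measured value.

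The ganglia came from 8-week-old C57BL6J offspring. The 3 control (CT) pools came from offspring of dams left undisturbed, and the 3 prenatal stress (PS) pools from offspring of dams held in narrow tubes in bright light for 3 daily sessions of 30 min. The protocol label gives the stress as embryonic day 13 to 18, and the series design places both limits slightly later. Each pool held tissue of 3 mice by its title, which gives the 9 mice per group of the series design, while the protocol label gives 3. The labels name no drug and no engineered allele. Both sexes were used in the study, and no label gives the sex or litter of a pool or the spinal levels of its ganglia. The pools are named biological replicates, and p-values measure the spread between them.

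Hox genes encode homeodomain transcription factors that give position along the body axis. Within a cluster the genes lie in the order in which they are used, with low paralog numbers switched on early and reaching far towards the head, and high numbers switched on late and kept towards the tail. In neurons of the trunk, low numbers reach the hindbrain and neck, middle numbers mark forelimb and thoracic levels, and the highest mark lumbar, sacral and tail levels. Cells of neural crest origin, which include the ganglion neurons and their glia, keep part of this code in the adult, so a pooled sample reads as a sum over the levels it holds. In such bulk samples, fewer cells of a level and less RNA per cell cannot be told apart.

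The clusters also encode microRNAs that act on Hox transcripts. In RefSeq (GRCm38.p6) they fall into 2 families by seed, here in capitals (bases 2 to 8), and they are shown because their host regions lie among the members described below.
mmu-miR-10a-5p: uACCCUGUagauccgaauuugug
mmu-miR-10b-5p: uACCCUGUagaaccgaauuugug
mmu-miR-196a-5p: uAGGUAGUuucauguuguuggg
mmu-miR-196b-5p: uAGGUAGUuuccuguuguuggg
The miR-10 pair shares the seed ACCCUGU and the miR-196 pair the seed AGGUAGU. Poly-A libraries do not measure the mature forms. The host region Mir196a-1 of cluster B gave 42 to 111 counts per control pool and 35 to 79 per stress pool, Mir10a gave 12 to 26 and 15 to 22, Mir10b stayed at 0 to 5 in all pools, and Mir196b and Mir196a-2 were listed at 0 in all 6. Mir196b shares exonic bases with Hoxa9 on the same strand (1.52% of those of Hoxa9), so reads there may have been dropped.

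Hoxb8 transcripts carry a near-complete complement of miR-196a, which is known to cut Hoxb8 mRNA in mouse embryos. In the longest Hoxb8 transcript of GENCODE M21 it lies at bases 2208 to 2229, after the last coding base at 1787, and 21 of its 22 bases match the full complement. The difference is A18G, counted from the 5′ end of the site and in capitals here, and lies opposite the seed.
Hoxb8 site: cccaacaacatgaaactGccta
The best ungapped match in each of the other 38 members held 11 to 15 of 22 bases. In Hoxa7, Hoxa9 and Hoxb7 that match held 14, lay in the 3′ UTR and included the full complement of the seed. The Hoxb8 site differs from that complement in 1 letter, a G opposite a U of the seed. Only letters of the full complement were counted as matches, so a G:U pair counted as a difference.

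Promoter sequence was at hand for 22 of the 39 members (RefSeq, GRCm38.p6). Over the 250 bases before the start, the median observed-to-expected ratio of CpG pairs was 0.603 in these 22 and 0.378 over 27018 promoters, and the median GC content was 56.8% and 52%. Hoxb8 and Hoxd10 are shown because they varied most between pools among the members with a mean of at least 1 CPM (gene counts scaled to a common library size, so that levels of 1 gene can be compared between pools). Capitals mark TTTATNG, a core of sites bound by Cdx factors, and TGATNNAT, a core of Pbx and Hox pair sites, each searched on both strands.
Hoxb8, chr11:96281655-96281904, plus strand: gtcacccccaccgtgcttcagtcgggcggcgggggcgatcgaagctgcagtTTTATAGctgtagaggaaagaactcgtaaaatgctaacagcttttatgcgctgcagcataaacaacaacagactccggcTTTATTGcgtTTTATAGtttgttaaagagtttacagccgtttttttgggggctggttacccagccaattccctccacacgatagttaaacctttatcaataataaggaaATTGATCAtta
Hoxd10, chr2:74691641-74691890, plus strand: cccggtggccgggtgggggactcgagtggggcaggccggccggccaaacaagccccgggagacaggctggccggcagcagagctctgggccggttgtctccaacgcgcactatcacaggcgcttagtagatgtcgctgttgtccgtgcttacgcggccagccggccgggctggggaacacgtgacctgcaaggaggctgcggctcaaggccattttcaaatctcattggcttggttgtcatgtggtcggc
The Hoxb8 window held 4 matches, at a GC content of 44.4%, and the Hoxd10 window held 0, at 65.6%. TTTATNG was present in 2 of the 22 Hox windows (9.09%, Hoxb8 and Hoxd4) and in 10.2% of all windows. TGATNNAT was present in 3 (13.6%, Hoxa2, Hoxb1 and Hoxb8) and in 7.92% of all windows. These are matches of letters and not measured sites.

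Total gene counts ran from 51.7 to 87.4 M per pool, of which the members together took 10892 to 19824 counts. All 8 sensory neuron markers were present in every pool, at a summed level of 3983 to 4325 CPM in controls and 4005 to 4137 CPM in stress pools. Singly, 0 were called, and the groups did not overlap for 1 higher and 1 lower in stress pools (25%, against 18.1% of all genes tested). In edgeR, 3 of the 8 (37.5%) had an unadjusted p under 0.05, against 11.1% of all genes tested. Other tissue differed between pools. The 15 spinal cord and brain markers summed to 38.1, 205.0 and 143.8 CPM in the 3 control pools and, for the stress pools in the same order, to 40.2, 256.8 and 61.9 CPM, and 12 of them exceeded 3 counts in every pool. The 10 skeletal muscle markers summed to 19.7, 49.0 and 2905 CPM in controls and 40.5 to 62.3 CPM in stress pools. The 6 sympathetic neuron markers summed to 46.5 CPM in stress pool 2, to 7.18 CPM in control pool 1 and to 1.7 to 2.17 CPM in the other 4. The 4 satellite glia markers summed to 525.0, 565.8 and 508.5 CPM and then to 445.5, 419.6 and 418.4 CPM, with 0 of them called. The groups did not overlap for 3 of the 4 (75%), all lower in stress pools, where 8.76% of all genes tested lay, and overlapped for Kcnj10. In edgeR, 3 of the 4 (75%) had an unadjusted p under 0.05, against 11.1% of all genes tested. Control pool 3 stands apart in muscle transcripts, stress pool 2 in sympathetic transcripts, and control pools 2 and 3 with stress pool 2 in spinal cord transcripts. Spinal cord, muscle and sympathetic ganglia express Hox genes of their own level too, and the part of these tissues and of glia in the Hox values was not tested.

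Hox transcripts were found from paralog number 1 to 11, were highest per kb of transcript at number 7 and were at or near 0 at numbers 12 and 13. Levels are compared between genes as CPM per kb of the longest annotated transcript, while counts by gene can fall on any annotated exon. All exons span 2876 bases in Hoxa7 and 5580 in Hoxa9, against longest transcripts of 2031 and 3226. Ranks and shares depend on this choice, and division by all exonic bases was not tried. Summed over the clusters, paralog number 7 stood at 20.1 ± 1.41 CPM per kb in controls and 23.1 ± 2.76 in stress pools (SD, n = 3 pools each), which was 21.6% of all Hox transcripts. Numbers 8 and 9 gave 14.8% and 14.9%, number 6 gave 10.7%, number 10 gave 6.49% and number 11 gave 0.499%. Number 1 gave 8.54%, mostly Hoxd1. From number 2 the profile rose through the neck and forelimb numbers to number 7, and fell through the thoracic numbers 8 and 9 to the lumbar and sacral ones. The peak at number 7 rested mostly on Hoxa7, at 15.5 CPM per kb, with Hoxb7, the other member, at 6.09. Without division by length, number 9 summed higher than number 7.

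**Figure D1:**
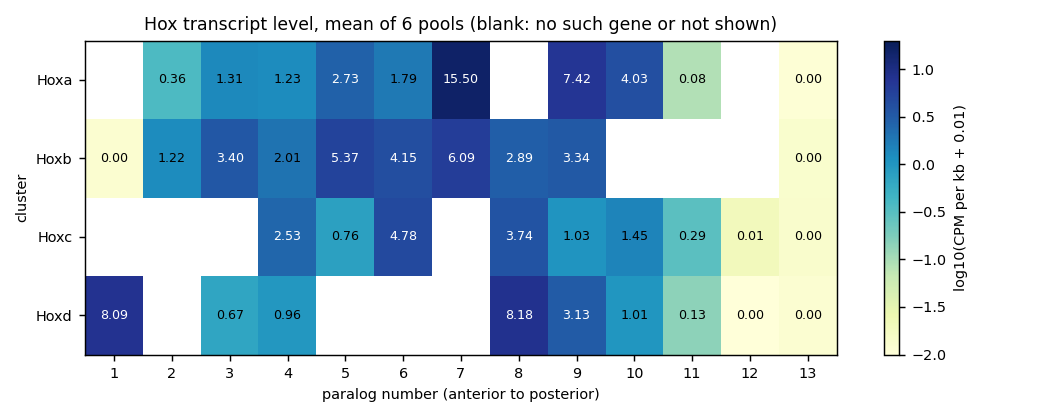
Mean level of 38 Hox genes over the 6 pools in CPM per kb, by cluster (rows) and paralog number (columns), with colour on a log10 scale. Hoxa7 was the highest member at 15.5 CPM per kb, and every member of numbers 12 and 13 stood at 0.01 or less.

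Per kb of the longest transcript, the highest single members were Hoxa7 at 15.5 CPM per kb, Hoxd8 at 8.18, Hoxd1 at 8.09, Hoxa9 at 7.42 and Hoxb7 at 6.09. The neighbours of Hoxd1 in its cluster, Hoxd3 and Hoxd4, were listed at 0.672 and 0.963 CPM per kb, and Hoxb1 at 0.00246. Hoxd3 and Hoxd4 share 62.3% and 52.3% of their exonic bases with genes on the same strand, each with the other among them, so reads there may have been split or dropped and both levels may be too low. Hoxd1 is known in mice as a gene of developing pain-sensing neurons, needed for their nerve endings in skin. The 7 members that missed the filter on low counts were Hoxb1, Hoxc12, Hoxd12, Hoxa13, Hoxb13, Hoxc13 and Hoxd13, and none exceeded 2 counts in any pool. Hoxd12 had 0 counts in all 6 pools, which allows up to 3 counts or 0.0344 to 0.0581 CPM per pool. Genes of numbers 12 and 13 pattern the tail, the distal limb and the genital region.

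**Figure D2:**
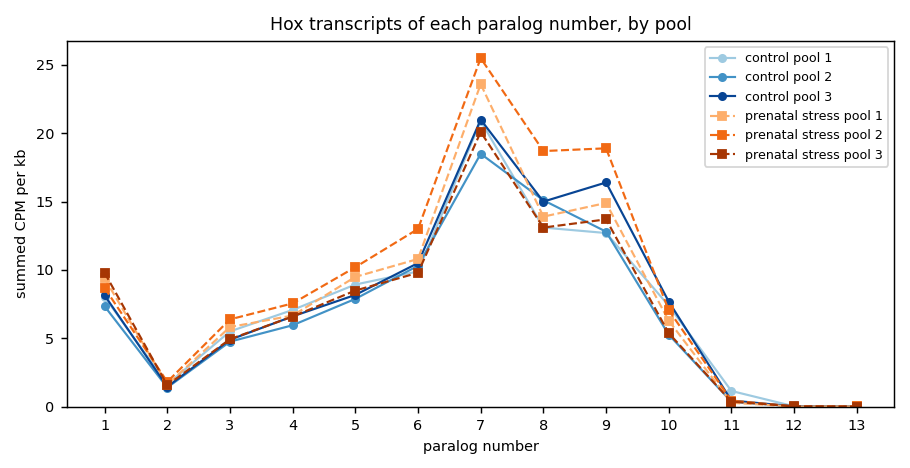
Summed level of each paralog number in CPM per kb, with 1 line per pool (circles for control, squares for prenatal stress). All 6 lines peak at number 7 and fall to near 0 by number 12, and stress pool 2 is highest from number 2 to number 9 while control pool 1 is highest at number 11.

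No Hox gene passed the test of prenatal stress against control, and the differences between pools of 1 group were often as large as those between groups. Of the 39 members, 32 passed the low-count filter, and 0 were called by edgeR's quasi-likelihood test at an adjusted p under 0.05 over all 20146 genes tested, where 26 genes (0.129%) were called, 17 higher (0.0844%) and 9 lower (0.0447%) in stress pools. The smallest adjusted p among members was 0.273. At an unadjusted p under 0.05 there were 3 of 32 members (9.38%) against 11.1% of all genes, and the DESeq2 Wald test also called 0 members. The 3 pools of a group separated from the other 3 in 6 members (18.8%) and in 18.1% of all genes tested. Both of these shares lie near the background. By direction, the 6 members were all higher in stress pools, where 9.33% of all genes lay, and 0 were lower, where 8.76% lay. The 6 were Hoxd1, Hoxa4, Hoxb5, Hoxb6, Hoxb7 and Hoxc9, and without a set test the count is given as a description.

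Of the 26 tested members of numbers 1 to 9, 23 had a positive log2 fold change (88.5%, against 52.3% of all genes tested), with a median of 0.17 against 0.01 over all genes. Of the 6 tested members of numbers 10 and 11, 4 had a negative one, with a median of -0.44. Without stress pool 2 the count for numbers 1 to 9 was 16 of 26 with a median of 0.04, and without control pool 1 the median for numbers 10 and 11 was -0.17, so that each side rested in large part on 1 pool. Stress pool 2 lay above the mean of the 6 pools for 24 of the 26. With DESeq2 size factors 22 of the 26 were positive.

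**Figure D3:**
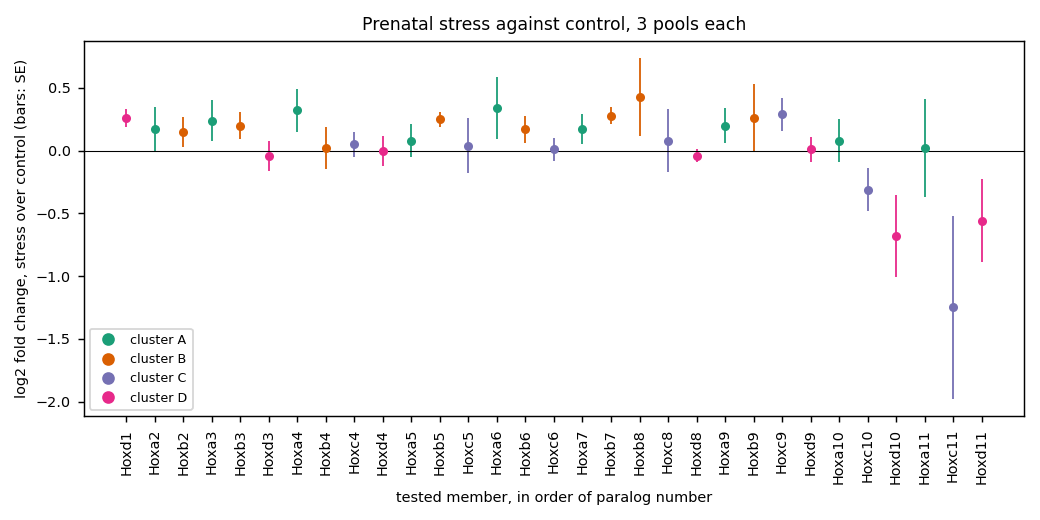
Log2 fold change of prenatal stress over control for 31 of the 32 tested members, in order of paralog number and coloured by cluster, with bars of 1 SE. Most members up to number 9 lie between 0 and 0.43, and Hoxc10, Hoxd10, Hoxc11 and Hoxd11 lie between -0.31 and -1.25 with wide bars.

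Among the genes of numbers 1 to 3, which pattern the hindbrain and neck, values are given as CPM in control pools 1 to 3 and then stress pools 1 to 3. Hoxd1 stood at 14.1, 12.7 and 14.3 CPM and then at 16.7, 15.4 and 17.2 CPM (log2 fold change 0.26 ± 0.07 SE, edgeR adjusted p = 0.307). Every stress pool exceeded every control pool for this gene, by less than the test over all genes required. It had no annotated exon shared with another gene.
Hoxb2, which acts in facial motor neurons, stood at 3.93, 3.39 and 3.52 and at 3.69, 4.48 and 3.85 CPM. Hoxb3, a hindbrain gene, stood at 11.1, 9.46 and 9.75 and at 11.7, 13.0 and 10.1 CPM. Hoxa3, needed for the thymus and parathyroid, stood at 3.59, 2.76 and 2.96 and at 3.9, 4.14 and 2.94 CPM. All 3 were highest in stress pool 2 and lowest in control pool 2, with overlapping groups. Of the exonic bases of Hoxb3, 52.9% lie opposite Hoxb3os, and reads of the pair could be mixed, since the strand setting of the counting is not given in the sources used here.
Hoxd3, a gene of the first neck vertebrae, stood at 1.9, 2.13 and 2.05 and at 1.94, 2.08 and 1.88 CPM. Its range was nearly the same in the 2 groups. Hoxa2, a selector gene of the second pharyngeal arch, was below 1 CPM throughout, at 0.555 to 0.749 CPM.

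The genes of numbers 4 and 5, used at neck and forelimb levels, were level or slightly higher in stress pools. This direction rested on single pools. Without stress pool 2, 3 of the 7 tested had a positive log2 fold change (median -0.01), and without control pool 2 also 3 (median -0.01). Hoxb5, which acts in the enteric neural crest and in placing the forelimb, stood at 14.3, 13.1 and 13.7 and at 15.9, 17.2 and 15.6 CPM (0.25 ± 0.06 SE, adjusted p = 0.29). Hoxa4, a gene of neck vertebrae, stood at 1.67, 1.73 and 1.84 and at 1.89, 2.69 and 1.96 CPM (0.32 ± 0.17 SE, adjusted p = 0.525). In both genes the groups did not overlap and stress pool 2 was highest. For Hoxa4 the margin was narrow, with 1.84 CPM in control pool 3 and 1.89 CPM in stress pool 1.
Hoxb4, known for its effect on blood stem cells, stood at 6.57, 4.44 and 4.41 and at 5.35, 5.4 and 4.86 CPM. Hoxc4 stood at 5.35, 4.79 and 5.65 and at 5.13, 5.95 and 5.33 CPM. Hoxd4 stood at 2.39, 2.25 and 2.74 and at 2.5, 2.44 and 2.46 CPM. For Hoxb4 control pool 1 alone lay above the stress pools, and the other 2 genes differed by less than their spread. The values of Hoxd3 and Hoxd4 carry the doubt over shared exons given above.
Hoxa5, which acts in the lung and, with Hoxc5, in motor neurons of the diaphragm, stood at 5.51, 4.67 and 4.78 and at 5.51, 5.83 and 4.43 CPM. Hoxc5 stood at 2.55, 2.0 and 2.05 and at 2.52, 2.72 and 1.55 CPM. Both had their lowest value in stress pool 3 and their highest in stress pool 2.

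The genes of numbers 6 and 7, which act where the forelimb gives way to the ribs, included the highest member, Hoxa7, and lower ones such as Hoxa6 at 1.79 CPM per kb. Hoxa7 stood at 31.1, 26.5 and 31.5 and at 34.6, 37.7 and 27.6 CPM (0.17 ± 0.12 SE, adjusted p = 0.638). Hoxb7 stood at 7.15, 7.06 and 7.14 and at 8.46, 9.01 and 8.37 CPM (0.28 ± 0.07 SE, adjusted p = 0.273), the member of smallest p. Hoxb7 was almost level among controls and did not overlap with the stress pools, while the Hoxa7 ranges overlapped.
Hoxb6 stood at 7.67, 7.63 and 7.71 and at 7.84, 10.1 and 7.92 CPM. Hoxc6, a gene of forelimb motor neurons, stood at 7.41, 7.75 and 7.43 and at 7.9, 8.09 and 6.72 CPM. Hoxa6 stood at 1.14, 1.36 and 1.65 and at 1.56, 2.37 and 1.32 CPM. Stress pool 2 was the highest pool for all 5 tested members of numbers 6 and 7, and without it the Hoxb6 difference was 0.04 in place of 0.17 on the log2 scale. The Hoxb6 groups did not overlap, by a margin smaller than the SD of the stress pools.

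At numbers 8 and 9, which mark the thorax, the spread between pools ranged from the steadiest member, Hoxd8, to Hoxb8, Hoxb9 and Hoxc8, with coefficients of variation of 37.9%, 30.4% and 26.1%. Hoxb8, which in mice acts in sensory circuits of the dorsal spinal cord and in microglia, stood at 4.6, 6.99 and 7.89 and at 6.78, 13.1 and 6.37 CPM. Hoxb9 stood at 6.1, 7.3 and 10.0 and at 7.71, 13.2 and 7.2 CPM. Hoxc8, a gene of forelimb motor pools, stood at 6.36, 9.57 and 8.36 and at 7.57, 11.9 and 6.16 CPM. Stress pool 2 was highest in all 3, and control pool 1 was lowest for both cluster B genes and among controls for Hoxc8.
The ratio of the highest to the lowest pool was 2.84 for Hoxb8, 2.17 for Hoxb9 and 1.93 for Hoxc8. For Hoxb8 the log2 fold change was 0.43 ± 0.31 SE (adjusted p = 0.649), and without stress pool 2 it was 0.01. The summed spinal cord markers were also highest in stress pool 2 and lowest in control pool 1. In the pools between, the markers ran from 40.2 to 205.0 CPM and Hoxb8 from 6.37 to 7.89 CPM. Stress pools 1 and 3 lay below control pools 2 and 3 in both, while the order within each pair was reversed. Singly, 9 of the 15 were highest in stress pool 2, with Gfap at 85.1 CPM against 41.2 CPM in control pool 3, the next highest. The other 6 were highest in control pool 2, with Slc1a2 at 85.1 CPM against 76.5 CPM in stress pool 2. The summed sympathetic markers were highest in stress pool 2, and the part of either in the Hox values was not tested.
Hoxa9 stood at 20.1, 20.3 and 26.4 and at 24.8, 29.9 and 22.3 CPM. Hoxd9 stood at 7.02, 5.87 and 7.1 and at 6.61, 7.22 and 6.31 CPM. Hoxc9, which sets up the thoracic motor columns, stood at 1.97, 2.14 and 2.46 and at 2.8, 2.65 and 2.58 CPM (0.29 ± 0.13 SE, adjusted p = 0.455). Hoxa9 and Hoxd9 overlapped between groups, while all Hoxc9 values were higher in stress pools.
Hoxd8 was the steadiest member, at 22.4, 21.6 and 21.6 and at 20.8, 22.0 and 20.8 CPM. Its coefficient of variation over the 6 pools was 2.93%, close to the 2.62% that counting error alone gives. Over the 28 members with a mean of at least 1 CPM the median was 12.8%, with 44.4% the highest (Hoxd10), against a median of 7.27% over all 10549 tested genes with means of 1 to 50 CPM.

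**Figure D4:**
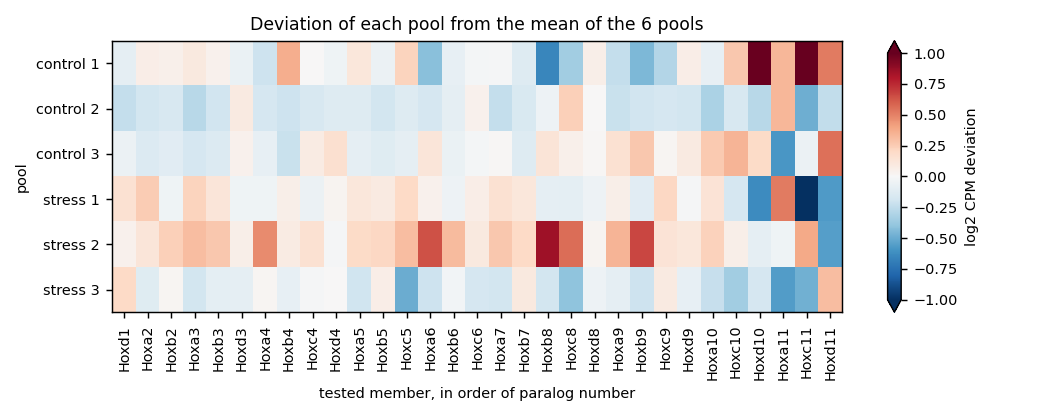
Log2 deviation of each pool (rows) from the mean of the 6 pools for 31 of the 32 tested members (columns, by paralog number). Stress pool 2 is above the mean for most members of numbers 1 to 9, and control pool 1 is below it for Hoxb8, Hoxc8 and Hoxb9 and above it for Hoxd10, Hoxc11 and Hoxd11.

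Among the lumbar and sacral genes of numbers 10 and 11, control pool 1 was highest for Hoxd10 and Hoxc11, control pool 3 for Hoxa10, Hoxc10 and Hoxd11, and stress pool 1 for Hoxa11. Hoxd10, which with Hoxc10 sets lumbar motor neuron identity, stood at 3.42, 1.42 and 1.96 and at 1.11, 1.62 and 1.53 CPM. Hoxc10 stood at 3.3, 2.45 and 3.47 and at 2.43, 2.85 and 2.15 CPM. Hoxa10, a gene that suppresses ribs in the lumbar spine, stood at 9.67, 8.21 and 12.3 and at 11.3, 12.0 and 8.71 CPM. Control pools 1 and 3 were the highest pools for Hoxc10 and Hoxd10, but control pool 2 lay within the stress range for both, and it was the lowest of all pools for Hoxa10.
Hoxc11, a sacral and hindlimb gene, had 121 counts in control pool 1 (95% exact Poisson interval 100.4 to 144.6, counting error only), 20 and 36 in control pools 2 and 3, and 13, 37 and 16 in stress pools 1 to 3. These are 1.74, 0.308 and 0.413 and then 0.168, 0.561 and 0.31 CPM. The interval of control pool 1, 1.45 to 2.08 CPM, lay above that of the next highest, stress pool 2, at 0.395 to 0.774 CPM, and the other controls lay within the range of the stress pools. The log2 fold change of -1.25 ± 0.73 SE (adjusted p = 0.564) was -0.08 without control pool 1, and that of Hoxd10 moved from -0.68 ± 0.33 SE (adjusted p = 0.493) to -0.26. For Hoxc10 (-0.31 ± 0.17 SE, adjusted p = 0.544) it was -0.26 without that pool, and for Hoxd11 (-0.56 ± 0.33 SE, adjusted p = 0.564) it was -0.46.
Hoxd11, a gene of the sacrum, stood at 0.605, 0.354 and 0.62 and at 0.284, 0.288 and 0.523 CPM. Hoxa11, its counterpart in cluster A, rested on 6 to 19 counts per pool and showed no difference detectable at this depth. Of the exonic bases of Hoxa11, 35% lie opposite Hoxa11os.

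**Figure D5:**
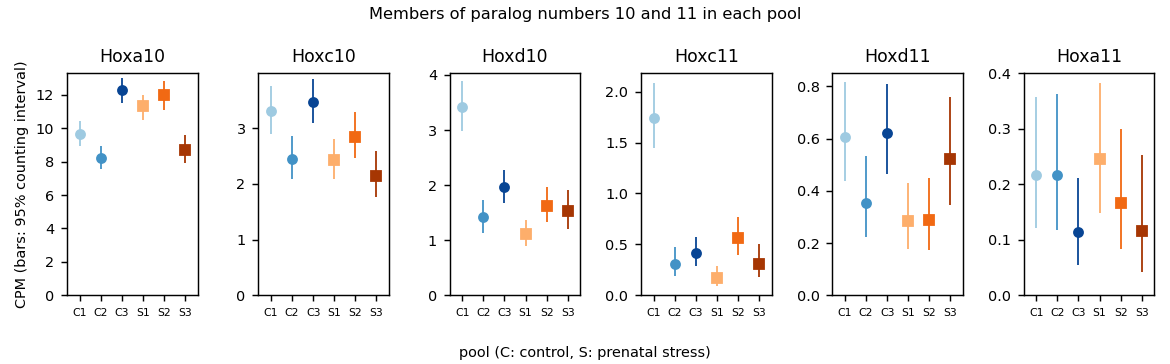
CPM of the 6 members of numbers 10 and 11 in each pool (circles for control, squares for prenatal stress), with 95% exact Poisson intervals that cover counting error only. Hoxc11 and Hoxd10 are highest in control pool 1, at 1.74 and 3.42 CPM, and Hoxa10 follows another order.

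Ratios within a cluster, which do not depend on library size, set the same pools apart for some gene pairs and not for others. Hoxc11 over Hoxc9 (both per kb) was 1.04 in control pool 1 and 0.0704 to 0.248 in the other 5 pools. Hoxd10 over Hoxd9 was 0.572 in control pool 1 and 0.198 to 0.325 in the others. Hoxc10 over Hoxc9 was 2.08, 1.42 and 1.75 in controls and 1.08, 1.34 and 1.04 in stress pools, so that the groups did not overlap. In every other ratio given here the groups overlapped, and among single genes they did not overlap in 18.1% of all tested. Hoxb9 over Hoxb5 was lowest in control pool 1 (0.462) and highest in stress pool 2 (0.83), with means of 0.62 ± 0.166 in controls and 0.619 ± 0.183 in stress pools (SD, n = 3 each). Hoxb8 over Hoxb5 and Hoxc8 over Hoxc6 were also lowest in control pool 1 (0.341 and 0.61) and highest in stress pool 2 (0.802 and 1.05). Other ratios did not follow these pools. Hoxd11 over Hoxd9 was 0.0547 in control pool 1, 0.0553 in control pool 3 and 0.0525 in stress pool 3, and Hoxa10 over Hoxa9 ran from 0.493 to 0.606 over all pools. Hoxa9 over Hoxa5 was highest in control pool 3 at 3.21, above 2.99 in stress pool 2, though lowest in control pool 1 at 2.12. Hoxd8 over Hoxd4 was 9.09 and 9.31 in control pools 1 and 2 and 8.77 in stress pool 2.

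Over all members, the mean paralog number weighted by CPM per kb was 6.36, 6.38 and 6.51 for the control pools in order, against 6.28, 6.47 and 6.2 for the stress pools. The means were 6.41 ± 0.0805 and 6.32 ± 0.133 (SD), a difference within the spread of the pools. Hoxd1, given above as a gene of developing pain-sensing neurons, enters the weighted mean at number 1 with 8.09 CPM per kb. It was higher in every stress pool than in any control pool, and the weighted mean without it was not tried. Paralog numbers 10 to 13 made up 8.88%, 6.31% and 8.11% of Hox transcripts in controls and 6.39%, 6.34% and 6.12% in stress pools. Control pools 1 and 3 were above every stress pool in this share and control pool 2 was not, and the difference of -1.48 percentage points was -0.923 without control pool 1 and -2.21 without control pool 2. No p is given for these scores.

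Among the clusters, A held 34.4% ± 1.42 of Hox transcripts per kb in controls and 35.2% ± 1.81 in stress pools, and D held 22.9% ± 0.888 and 21.7% ± 2.52. Cluster B held 27.0%, 28.2% and 27.1% in controls and 28.0%, 30.5% and 29.4% in stress pools, and all 8 of its tested members had a positive log2 fold change (median 0.22). Cluster C held 14.9%, 16.2% and 14.9% in controls and 13.8%, 14.5% and 13.3% in stress pools. The groups did not overlap in the C share, as in 18.1% of all genes tested, and overlapped in the A, B and D shares. Without stress pool 2, 6 of 8 cluster B members were positive with a median of 0.05. Summed over the clusters, Hox transcripts stood at 96.2, 89.7 and 100.3 CPM per kb in controls and at 102.7, 118.2 and 93.8 in stress pools.

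Noncoding transcripts of the clusters gave no call. Of 16 on the list, 10 were tested, 0 were called and 8 had a positive log2 fold change (median 0.09). Hotair, a transcript of cluster C that lies between Hoxc11 and Hoxc12, had 35, 4 and 15 counts in controls and 15, 11 and 5 in stress pools, and like Hoxc11 it was highest in control pool 1. Hoxb3os stood at 7.86 to 10.2 CPM, Haglr of cluster D at 7.08 to 8.9 CPM and Hoxaas2 at 4.81 to 6.64 CPM, with overlapping groups. The 3 of smallest p were Hoxaas3 (0.42 ± 0.24 SE), Hoxb5os (0.51 ± 0.29 SE) and Hoxaas2 (0.17 ± 0.11 SE), with adjusted p of 0.553 to 0.631 in edgeR.

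No partner of Hox proteins passed the test. The TALE cofactors, the Pbx, Meis and Pknox proteins that bind DNA with Hox proteins, were all 9 tested and 0 were called, with a median log2 fold change of 0.05 and a range of -0.02 to 0.17. Pbx4 stood at 4.32, 4.56 and 4.38 and at 4.93, 5.48 and 4.51 CPM (0.17 ± 0.10 SE), and Meis2 at 25.3, 27.2 and 26.5 and at 27.5, 27.5 and 26.5 CPM (0.05 ± 0.04 SE).
Of 36 genes that set or maintain Hox expression, 33 were tested and 0 were called, 18 were positive, and 4 had an unadjusted p under 0.05 (12.1%, against 11.1% of all genes). Cyp26a1, which degrades retinoic acid, an early signal for Hox genes, stood at 0.404, 0.493 and 0.344 and at 0.181, 0.182 and 0.136 CPM (-1.28 ± 0.26 SE, adjusted p = 0.234). Gdf11, a signal that promotes the switch to posterior Hox genes in the embryo, stood at 32.8, 33.8 and 32.5 and at 29.9, 31.3 and 28.9 CPM (-0.14 ± 0.04 SE, adjusted p = 0.364). Kmt2a, the histone methyltransferase that keeps Hox genes active, stood at 80.0, 89.2 and 90.6 and at 91.9, 97.2 and 103.8 CPM (0.17 ± 0.06 SE, adjusted p = 0.394). Cyp26a1 rested on 28 to 32 counts per control pool and 7 to 14 per stress pool. These 3 genes were picked by smallest p, so that their groups did not overlap follows largely from the choice. Over the 33 tested, the groups did not overlap for 5 higher and 2 lower in stress pools (21.2%, against 18.1% of all genes tested). None of the 3 passed the test over all genes.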

How the data were processed

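RNA of dorsal root ganglia was sequenced as 6 poly-A selected, stranded, paired-end libraries, each from 3000 ng of RNA of 3 pooled mice, per the labels' protocols. Each deposited file listed whole-number read counts by gene symbol, which the authors had not normalized. FastQC, STAR 2.4 and HTSeq 0.9.1 and the builds GRCm39 and mm10 are named in the submitters' processing notes. Which build and strand setting were used is not given in the sources used here. Reads given to no gene (15.3% to 16.2% of each file) entered neither library sizes nor tests.

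The stress and control pools were compared in edgeR 4.0.16 under R 4.3.3 (TMM scaling, filterByExpr at a minimum count of 10, quasi-likelihood test, Benjamini-Hochberg over 20146 genes, threshold 0.05), checked on simulated counts. An SE is the log2 fold change over the root of its F statistic. CPM values use TMM-scaled totals of gene counts, and CPM per kb uses the longest GENCODE M21 transcript, found for all 39 members. DESeq2 1.42.0, DESeq2 size factors, no low-count filter, GC and length offsets (95.2% of tested genes), the replicate block and leaving out each pool were alternatives. Deviations of same-numbered pools of the 2 groups correlated across genes at 0.34, 0.22 and 0.13, and those of differently numbered pools at -0.3 to 0.12. Deviations were taken from the mean of each group, so these correlations depend on each other and do not establish a pairing. The numbers come from the labels, which do not say what they stand for. No library pair agreed within sampling noise (chi-square per degree of freedom 10.98 to 36.41).

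The members, lists and tests were chosen with earlier results of these data known. Named genes were all members, with a value per pool for those with a mean of at least 1 CPM (28), and up to 3 genes of smallest p per list. Hotair, Haglr, Hoxb3os, the microRNA hosts and the genes given by counts among the flanking and other positional genes were named after their values were seen. A few genes that this rule names, 1 member among them, are not reported here.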

Additional observations from a re-analysis of the deposited data

How the results depend on the processing

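The count of Hox genes called was 0 under all 12 alternatives of the fit, with a smallest adjusted p of 0.11 (Hoxb5, DESeq2). With the replicate number as a block it was also 0, and the block changed no call of a member. Over all genes, 26 were called, 49 without the low-count filter, 287 with the DESeq2 Wald test, 22 with the replicate block, and 2 to 14 when 1 pool was left out (2 without control pool 2). Of 372 log2 fold changes of 31 members under the alternatives, 35 changed sign, in 11 members whose size in the reported fit was at most 0.263. Leaving out 1 pool gave -0.05 to 0.25 for Hoxa10, -0.32 to 0.21 for Hoxa11, -0.01 to 0.18 for Hoxa5, -0.08 to 0.24 for Hoxb4, -0.07 to 0.49 for Hoxb9, -0.01 to 0.11 for Hoxc4, -0.11 to 0.24 for Hoxc5, -0.04 to 0.08 for Hoxc6, -0.24 to 0.26 for Hoxc8, -0.06 to 0.09 for Hoxd4 and -0.08 to 0.06 for Hoxd9. Hoxa11 was -0.02 with DESeq2, -0.05 with the replicate block and -0.01 with the block and the GC and length offsets. Hoxd9 was -0.03 with those offsets, with and without the block. Hoxd4, at 0.0034 in the reported fit, was -0.0017 with DESeq2 size factors, -0.0018 without the filter and -0.0042 with the DESeq2 Wald test. The axial mean moved by less than the spread between pools in all 9 alternatives tried (difference -0.169 to -0.0391), as did the share of numbers 10 to 13 (-2.21 to -0.923) and the cluster shares, of which D changed sign without stress pool 2 (0.0623 in place of -1.2 percentage points). The cause of these shifts was not tested. Counting error alone gave a coefficient of variation close to that over the 6 pools for Hoxa11 (28.6% against 30.9%). It exceeded that over the pools for Hoxa2 (15.2% against 12.0%), Hoxd3 (8.6% against 5.16%) and Hoxd4 (7.73% against 6.56%). The 7 untested members had at most 2 counts in any pool. How far depth or the number of pools limits the other members was not tested.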

Other observations

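Other genes that carry position, and the genes that flank the Hox clusters, added 0 calls. Of 11 other positional genes 4 were tested, with Pax9 at 2.02 to 2.65 CPM in controls and 2.38 to 2.72 CPM in stress pools (edgeR adjusted p = 0.636) and Pax1 at 0.138 to 0.431 CPM and 0.0775 to 0.182 CPM (adjusted p = 0.613). Pitx1 and Tbx5, which mark hindlimb and forelimb tissue, had at most 1 count in any pool, Tbx4 had 2 to 12, and the forebrain gene Otx2 had 0 in all 6.

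Of 15 flanking genes 12 were tested, 8 of them with positive values and a median of 0.06. Hibadh, beside cluster A, stood at 53.5 ± 0.927 and 56.7 ± 1.55 CPM (SD, n = 3 pools each; edgeR adjusted p = 0.442), Skap2 at 39.9 ± 1.49 and 37.1 ± 2.37 CPM, and Hnrnpa1 at 332.8 ± 10.9 and 317.6 ± 10.3 CPM. The homeobox genes Evx1 and Evx2, at the posterior ends of clusters A and D, had at most 3 and 4 counts in any pool, like the members of numbers 12 and 13 beside them.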
